A study of Mus musculus with 6 samples.

Results

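Transcripts of the myostatin, activin and TGF-beta group were examined in C2C12 myotubes after *Dj1* knockdown. The group was given as 10 gene names: MSTN, INHBA, FST, FSTL1, FSTL3, TGFB1, TGFB2, TGFB3, TGFBI and CTGF. Every probe of the array file that carried one of these names, in upper or lower case, was taken and kept separately. This gave 12 of the 45281 probes, for 10 of the 30854 gene names in the file. CTGF is now called *Ccn2* in RefSeq, and both names are used here for the same 2 probes.

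C2C12 is a mouse myoblast line whose cells fuse into myotubes in low serum. Myoblasts of both groups received 60 nM siRNA by reverse transfection, either a scramble siRNA or 1 siRNA against *Dj1*, and were moved to differentiation medium after 48 h. Total RNA was taken from the myotubes after 4 days of differentiation, 3 samples per group, and hybridized to a single BeadChip. No source used here says whether the samples came from separate cultures, so p-values measure the spread between these samples, which may be technical. With 1 siRNA per group, loss of DJ-1 and other actions of this siRNA cannot be told apart.

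Myostatin, activin A and the TGF-betas are secreted dimers that bind a type II receptor, which then activates a type I receptor and, through it, the transcription factors SMAD2 and SMAD3. Follistatin and follistatin-like 3 bind activins and myostatin outside the cell and keep them from their receptors. In skeletal muscle, myostatin and activin limit muscle mass, follistatin promotes myoblast fusion and growth, and TGF-beta holds back differentiation and favours production of extracellular matrix.

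The values are normalised log2 signals, background-corrected and quantile normalised. A probe counted as detected on an array when its detection p, the chance of such a signal among negative control beads, was under 0.05. The 17890 probes detected on at least 3 of the 6 arrays entered the moderated test of limma. P was adjusted by Benjamini and Hochberg's method across these probes, and a probe with an adjusted p under 0.05 is termed called. A log2 fold change is the mean of the DJ-1 siRNA arrays minus that of the scramble arrays, and SE is its standard error. Precision is limited by the number of arrays. Scramble arrays detected 16985 to 18179 probes each, and DJ-1 siRNA arrays 18408 to 18857. The median standard error over the beads of a probe was 11.3, 8.30 and 8.66 signal units with scramble siRNA, against 7.17, 6.36 and 5.88 with DJ-1 siRNA. The part of this difference in the results below was not tested.

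The targeted transcript was examined first. *Dj1*, listed as Park7 (ILMN_2728754), had log2 signals of 13.59, 13.37 and 13.63 with scramble siRNA, against 12.48, 12.49 and 12.15 with DJ-1 siRNA. Each knockdown array lay below each scramble array. The log2 fold change was -1.16 (SE 0.14, limma adjusted p = 0.00344), which left 44.7% of the scramble signal (95% confidence interval 35.7 to 55.9%).

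The cells carried the transcripts of myotubes. Of 33 probes for 15 myotube genes, 26 were tested, and these covered each of the 15 genes. Skeletal actin *Acta1* and embryonic myosin heavy chain *Myh3* were detected on all 6 arrays and were not called, with log2 fold changes of -0.01 (SE 0.11) and -0.17 (SE 0.11). Of the 26 tested probes, 15 were called lower and 2 higher, where 13.6% of all tested probes were called lower and 16.5% higher. Both probes called higher were listed as titin (TTN), with log2 fold changes of 1.77 and 0.76, while 3 other titin probes were called lower. A probe of MYH2 among those called lower passed the filter through the scramble arrays alone and so had to differ. The adult fast myosin *Myh1* had log2 fold changes of -1.93 and -2.19 on its 2 tested probes, and *Des*, which encodes the muscle intermediate filament protein desmin, fell by 0.56. Summed over the tested myotube probes, the normalised signal on the linear scale was 262094, 251768 and 249468 with scramble siRNA, against 195865, 206167 and 183916 with DJ-1 siRNA. The single probe that added most to this sum was that of *Acta1*, except on DJ-1 siRNA replicate 3, where it was a probe of *Myl1*. The knockdown myotubes thus had less of this transcript list on every array, and its part in the changes of the ligand group was not tested. In bulk RNA, fewer differentiated cells and less of a transcript per cell cannot be told apart.

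Markers of leukocytes, endothelium and epithelium were at or near background, while single adipocyte and fibroblast markers were detected. No probe of the endothelial list was tested, out of 6. Of 9 leukocyte probes 1 was tested (*Cd68*), and 7 were detected on no array, among them those of *Ptprc* and *Csf1r*. The summed leukocyte signal was 29, 53 and 27 with scramble siRNA, against 53, 45 and 52 with DJ-1 siRNA. Of 5 epithelial probes 2 were tested, *Cdh1* and *Krt8*, and neither was called. Their summed signal was 81, 94 and 128 with scramble siRNA, against 127, 107 and 97 with DJ-1 siRNA.

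The list of myoblast and cell cycle markers had no common direction, and its positive values were all those of cell cycle genes. *Pax7*, which marks resting satellite cells, was detected on no array. Among 12 myoblast and cell cycle probes, 8 were tested and 2 were called lower (25%), where 13.6% of all tested probes were. The 2 were *Myod1* with a log2 fold change of -0.90 (limma adjusted p = 0.00317) and 1 of 2 probes of *Ccnb1* with -0.57 (adjusted p = 0.0161). Of the 8 values 4 were positive, those of the tested *Mki67* (0.47 and 0.20) and *Top2a* probes (0.25 and 0.23), none called, and the median was -0.05. The summed signal of the myoblast list was 7926, 9124 and 8319 with scramble siRNA, against 6478, 7160 and 6841 with DJ-1 siRNA. The probe of *Cdh15* added most to this sum, and had a log2 fold change of -0.30 without a call (limma adjusted p = 0.0809). Of 6 adipocyte probes 1 was tested, for *Pparg*, and it rose by 1.06 on the log2 scale (limma adjusted p = 0.0264), with signals of 187, 93 and 137 with scramble siRNA, against 243, 264 and 338 with DJ-1 siRNA. *Adipoq* and *Plin1* were detected on no array. Of 6 fibroblast probes 2 were tested, and *Pdgfra* fell by 0.58 (adjusted p = 0.0493) while *Dpt* was not called. Their summed signal, mostly from *Pdgfra*, was 751, 811 and 853 with scramble siRNA, against 610, 867 and 469 with DJ-1 siRNA, and *Tcf21* and *Thy1* were detected on no array. The part of these lists in the results was not tested.

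Of the 12 probes of the ligand group, 10 were tested, for 9 of the 10 genes. Follistatin, follistatin-like 1 and TGF-beta 2 transcripts were lower and follistatin-like 3 was higher in *Dj1* knockdown myotubes, while the other 6 tested probes were not called. Thus 4 of 10 tested probes (40%) were called, where 30.1% of all tested probes were. The group had 3 probes called lower against 13.6% of all probes, and 1 called higher against 16.5%. For 5 of the 10 probes the 2 groups of arrays did not overlap, against 48.5% of all tested probes. These shares are near those of the whole array for so few probes, and nothing is read from them about the group as a set. The median log2 fold change was -0.27 over the 10 probes and 0.05 over all tested probes, with 7 negative and 3 positive values in the group. The members were therefore described 1 by 1.

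The calls of the group rested on few arrays and on the probe filter. With all 45281 probes tested, no member probe was called by limma, although 6 of the 12 had an unadjusted p under 0.05. Without DJ-1 siRNA replicate 1, no member was called either, with 4 at an unadjusted p under 0.05. The count was 1 without DJ-1 siRNA replicate 3, 2 without DJ-1 siRNA replicate 2, scramble replicate 1 or scramble replicate 2, and 3 without scramble replicate 3. It was also 2 after background correction with arrays aligned at their 75th percentile instead of quantile normalised. With the replicate number as a block the count was 4 again, with both CTGF probes called in place of FSTL1 and TGFB2. Each of the 4 called probes kept its direction under all 14 alternatives run.

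**Figure D1:**
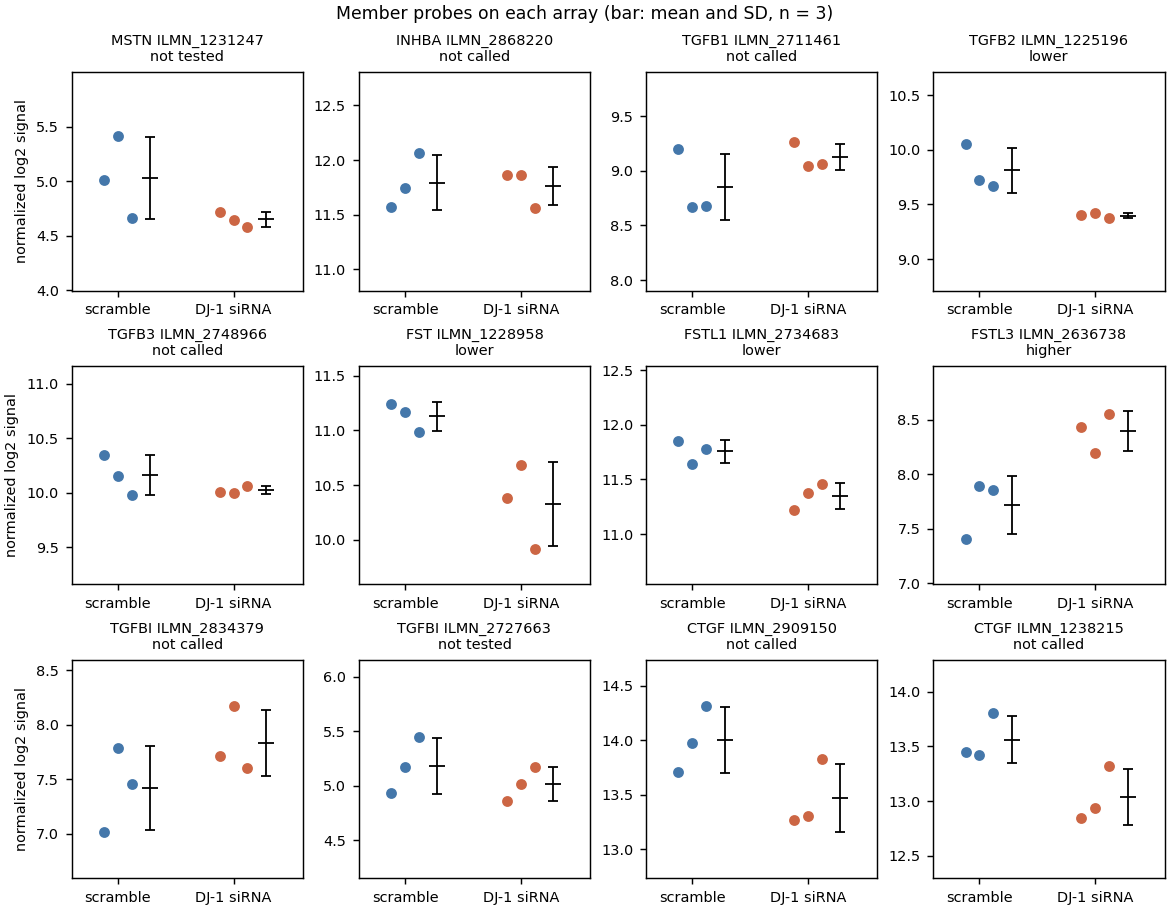
Normalised log2 signal (vertical axis) of the 12 member probes on the 3 scramble and 3 DJ-1 siRNA arrays, 1 point per array, with the mean and SD beside each group. All panels span at least 2 log2 units with their own centre, and levels are not comparable between probes. FST, FSTL1 and TGFB2 lie lower and FSTL3 higher on each DJ-1 siRNA array than on each scramble array, and MSTN was detected on no array.

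Among the ligands, myostatin itself could not be measured. The single MSTN probe (ILMN_1231247) had raw signals of 158.8, 182.6 and 130.8 with scramble siRNA, against 144.7, 147.7 and 131.0 with DJ-1 siRNA, close to the array medians of 162, 167 and 154 and of 161, 167 and 152. Its detection p was 0.234, 0.0652 and 0.763 with scramble siRNA, against 0.623, 0.766 and 0.918 with DJ-1 siRNA. The transcript was therefore not above background on any array, and no fold change is given.

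INHBA encodes the subunit of activin A, and its probe (ILMN_2868220) was detected on all arrays. Its log2 signal was 11.57, 11.75 and 12.07 in scramble myotubes, against 11.86, 11.86 and 11.56 in knockdown myotubes. The 2 groups overlapped, with scramble replicate 3 above every knockdown array. Its fold change on the log2 scale was -0.03 (95% confidence interval -0.42 to 0.35, limma adjusted p = 0.892), and its sign changed under 4 of the 14 alternatives. It was -0.15 without scramble replicate 1 and 0.10 without scramble replicate 3.

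TGFB2 encodes an isoform of TGF-beta and was the ligand whose transcript fell. Its probe (ILMN_1225196) had log2 signals of 10.05, 9.72 and 9.67 with scramble siRNA, against 9.40, 9.42 and 9.37 with DJ-1 siRNA. The knockdown arrays lay close together and below all scramble arrays, of which replicate 1 was the highest. In log2 units, knockdown minus scramble was -0.42 (SE 0.13, limma adjusted p = 0.0467), or 74.9% of the scramble signal (95% confidence interval 60.9 to 92.2%). The call was lost without scramble replicate 1 (-0.30), scramble replicate 2 (-0.46) or any of DJ-1 siRNA replicates 1, 2 and 3 (-0.42, -0.42 and -0.40). It was also lost with arrays aligned at the 75th percentile after background correction (-0.37, adjusted p = 0.0615), with the replicate number as a block (adjusted p = 0.071) and with all probes tested (adjusted p = 0.103). Adjusted p lay between 0.012 and 0.124 over the alternatives.

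The other TGF-beta isoforms were not called. TGFB1 (ILMN_2711461) had log2 signals of 9.20, 8.67 and 8.68 with scramble siRNA, against 9.26, 9.05 and 9.06 with DJ-1 siRNA. Scramble replicate 1 reached into the range of the knockdown arrays, while the other two scramble arrays lay below it. The log2 fold change was 0.27 (SE 0.17, limma adjusted p = 0.263), and without scramble replicate 1 it was 0.45 with an adjusted p of 0.0336, out of a range from 0.0336 to 0.507 over the alternatives. TGFB3 (ILMN_2748966) had log2 signals of 10.35, 10.15 and 9.98 in scramble myotubes, against 10.01, 10.00 and 10.06 in knockdown myotubes. The groups overlapped, with a log2 fold change of -0.14 (95% confidence interval -0.42 to 0.15, limma adjusted p = 0.421) that ranged from -0.04 without scramble replicate 1 to -0.23 without scramble replicate 3.

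With all arrays, follistatin had the largest change of the group by fitted value. Without DJ-1 siRNA replicate 3 it had -0.60, against -0.67 for the CTGF probe ILMN_1238215. The other CTGF probe (ILMN_2909150) was -0.71 at its lowest with 1 array left out. FST (ILMN_1228958) had log2 signals of 11.24, 11.17 and 10.98 with scramble siRNA, against 10.38, 10.68 and 9.92 with DJ-1 siRNA. The groups did not overlap, and DJ-1 siRNA replicate 3 was the lowest. In log2 units, knockdown minus scramble was -0.81 (SE 0.20, limma adjusted p = 0.0258), which left 57.2% of the scramble signal (95% confidence interval 41.1 to 79.6%). A two-sided exact permutation test over the arrays gave p = 0.1, which is the smallest value that 3 arrays against 3 allow and the value of every probe whose groups did not overlap. The fall was -0.60 without DJ-1 siRNA replicate 3 (adjusted p = 0.0511), and the call was also lost without DJ-1 siRNA replicate 1 (-0.83), scramble replicate 1 (-0.76) or scramble replicate 2 (-0.79). Over all alternatives adjusted p was between 0.000807 and 0.0715.

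Follistatin-like 3, which binds activin and myostatin as follistatin does, moved the other way. FSTL3 (ILMN_2636738) had log2 signals of 7.41, 7.89 and 7.85 in scramble myotubes, against 8.43, 8.20 and 8.55 in knockdown myotubes. Each knockdown array was above each scramble array. Its fold change on the log2 scale was 0.68 (SE 0.17, limma adjusted p = 0.0256), or 1.6 times the scramble signal, and without background correction 0.45 with quantile normalisation and 0.42 with the 75th percentile shift. Leaving out DJ-1 siRNA replicate 1 gave 0.66 and leaving out replicate 3 of that group 0.60, neither called. It was 0.42 to 0.77 over all alternatives, with adjusted p between 0.00568 and 0.0875.

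Follistatin-like 1 is a secreted glycoprotein with sequence similarity to follistatin, made by muscle cells among others. FSTL1 (ILMN_2734683) had log2 signals of 11.85, 11.64 and 11.78 with scramble siRNA, against 11.22, 11.37 and 11.46 with DJ-1 siRNA. The groups did not overlap, with a gap smaller than the range of either group. The log2 fold change was -0.41 (SE 0.11, limma adjusted p = 0.0354), or 75.4% of the scramble signal (95% confidence interval 62.6 to 90.7%). It was -0.28 and not called with arrays aligned at the 75th percentile after background correction (adjusted p = 0.126, the highest over the alternatives, which began at 0.00209). The call was also lost without scramble replicate 1 (-0.36), scramble replicate 3 (-0.39), or DJ-1 siRNA replicate 1, 2 or 3 (-0.34, -0.42 and -0.46), with the replicate number as a block (adjusted p = 0.0735) and with all probes tested (adjusted p = 0.0802).

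The last pair of genes encode secreted matrix proteins that TGF-beta is known to raise. CTGF, or connective tissue growth factor, had 2 probes. The first (ILMN_1238215) had log2 signals of 13.45, 13.42 and 13.81 with scramble siRNA, against 12.84, 12.93 and 13.32 with DJ-1 siRNA. The second (ILMN_2909150) had 13.71, 13.98 and 14.32 with scramble siRNA, against 13.27, 13.31 and 13.83 with DJ-1 siRNA. Replicate 3 was the highest in both groups on both probes. The groups did not overlap on the first probe, and on the second DJ-1 siRNA replicate 3 lay above scramble replicate 1.

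The log2 fold changes of CTGF were alike, -0.53 (SE 0.17, limma adjusted p = 0.0584) and -0.53 (SE 0.21, limma adjusted p = 0.101), and neither probe was called. The 95% confidence intervals, -0.94 to -0.12 and -1.04 to -0.03, are not adjusted for the number of probes tested. The first probe was called without DJ-1 siRNA replicate 3 (-0.67, adjusted p = 0.0467, of a range from 0.00314 to 0.206), with the stricter filter (adjusted p = 0.0323) and without background correction (adjusted p = 0.0107 with quantile normalisation and 0.0351 with the 75th percentile shift). The second was called with quantile normalisation and no background correction (adjusted p = 0.0255, of a range from 0.0101 to 0.289). Both probes were also called with a trend in the prior variance (adjusted p = 0.00314 and 0.0101) and with the replicate number as a block (adjusted p = 0.0295 and 0.0324). All 14 alternatives gave a negative value for both probes.

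TGFBI, named for its induction by TGF-beta, encodes a matrix adhesion protein. Its tested probe (ILMN_2834379) had log2 signals of 7.02, 7.79 and 7.45 in scramble myotubes, against 7.71, 8.17 and 7.60 in knockdown myotubes. The groups overlapped, and the log2 fold change was 0.41 (SE 0.23, limma adjusted p = 0.227). It ranged from 0.21 without scramble replicate 1 to 0.59 without scramble replicate 2. Its other probe (ILMN_2727663) was detected on scramble replicate 3 alone and was not tested. On the tested probes of the whole group, the standard error over the 21 to 61 beads of a probe was 2.15 to 9.58% of the raw signal, with a median of 4.2%.

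**Figure D2:**
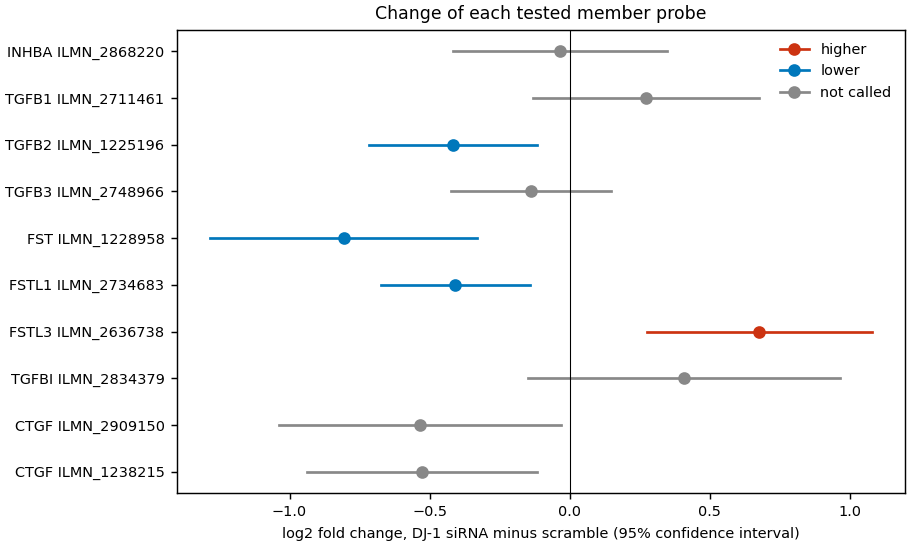
Log2 fold change (horizontal axis, DJ-1 siRNA minus scramble) of the 10 tested member probes, with the 95% confidence interval of limma's moderated test, coloured by call. FSTL3 at 0.68 is the probe called higher, FST at -0.81, TGFB2 at -0.42 and FSTL1 at -0.41 are those called lower, and both CTGF probes lie at -0.53 without a call.

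**Figure D3:**
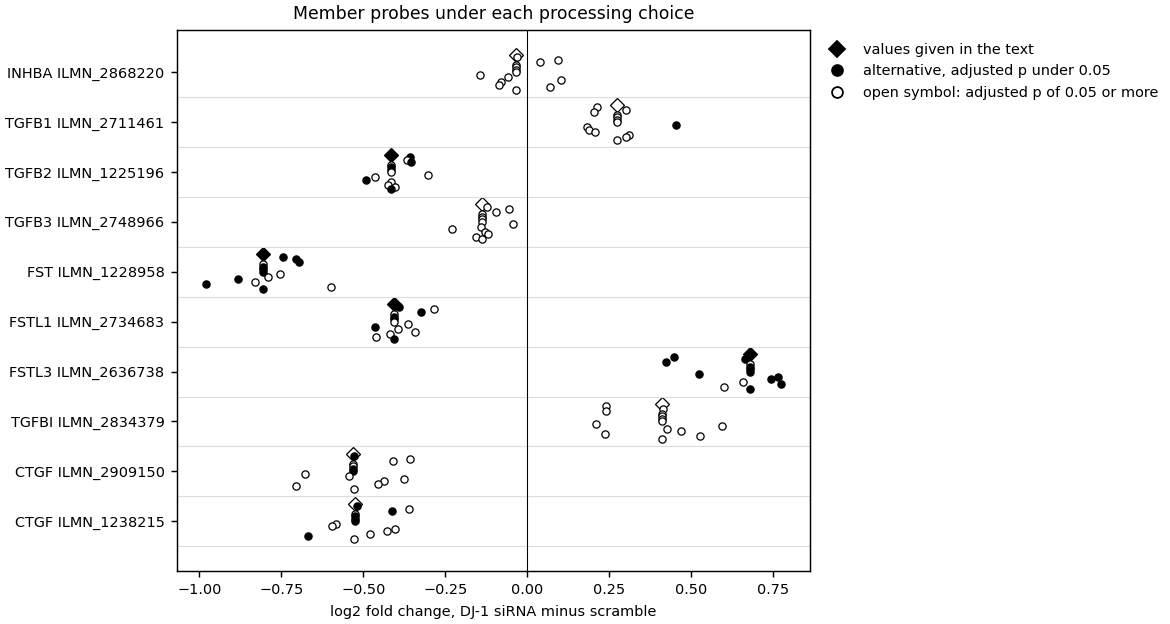
Log2 fold change (horizontal axis) of each tested member probe under the reported processing (diamond) and under the 14 alternatives (circles, in a fixed order from top to bottom within a row). Filled symbols have an adjusted p under 0.05. INHBA is the row with values on both sides of 0, and every row has at least 3 open symbols.

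The promoters of the called members are shown so that those that fell can be set beside the one that rose. RefSeq promoter sequences on GRCm38.p6 were at hand for 7 of the 10 genes and for 3 of the 4 called ones, *Tgfb2*, *Fstl1* and *Fstl3*. The 250 bases before the transcription start are printed 5′ to 3′ on the strand of the gene. Capitals mark matches, on either strand, to the SMAD core motif CAGAC, the AP-1 motif TGANTCA, the TEAD motif GGAATG and the E-box CAGCTG. *Tgfb2* lies on the minus strand (chr1:186705990-186706239), *Fstl1* on the plus strand (chr16:37776805-37777054) and *Fstl3* on the plus strand (chr10:79777024-79777273).
Tgfb2: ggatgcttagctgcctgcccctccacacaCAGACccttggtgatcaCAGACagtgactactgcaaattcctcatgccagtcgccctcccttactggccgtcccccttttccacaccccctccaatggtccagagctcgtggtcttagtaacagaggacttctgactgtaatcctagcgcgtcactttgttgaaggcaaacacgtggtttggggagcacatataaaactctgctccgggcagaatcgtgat
Fstl1: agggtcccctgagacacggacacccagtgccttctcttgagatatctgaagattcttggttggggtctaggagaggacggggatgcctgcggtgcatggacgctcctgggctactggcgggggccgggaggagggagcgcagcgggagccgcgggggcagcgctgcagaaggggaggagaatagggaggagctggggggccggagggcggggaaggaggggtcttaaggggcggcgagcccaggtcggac
Fstl3: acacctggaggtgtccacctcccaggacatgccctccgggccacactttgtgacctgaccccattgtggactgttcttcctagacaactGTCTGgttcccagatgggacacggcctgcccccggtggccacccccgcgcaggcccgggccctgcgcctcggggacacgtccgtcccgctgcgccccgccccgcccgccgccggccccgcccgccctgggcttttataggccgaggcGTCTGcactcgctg

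The window of *Tgfb2*, which fell, and that of *Fstl3*, which rose, each held the SMAD core letters 2 times, and that of *Fstl1* held none of the 4 motifs. The matches in *Tgfb2* and *Fstl3* did not overlap any other motif. Of 32851 promoter windows of this length, 42.2% held CAGAC or its reverse complement, 6.75% the AP-1 motif, 12.6% the TEAD motif and 13% the E-box. A match describes letters and no binding was measured.

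The rest of the pathway was described from 5 lists of genes, by role. They held 84 genes with 172 probes, of which 103 were tested. Of these, 12 were called higher and 23 lower, or 34.0% together, where 16.5%, 13.6% and 30.1% of all tested probes were. These counts include 1 probe of *Fmod* and 1 of *Smurf1* that passed the filter through 1 group alone and so had to differ. The median log2 fold change was -0.06. With each array left out in turn, 18 of the 35 called probes were called every time, and the other 17 were not called or not tested at least once. Leaving out DJ-1 siRNA replicate 1 gave 21 called probes, and leaving out replicate 3 of that group gave 19. With all 45281 probes of the array tested, 26 of the 172 were called, 8 higher and 18 lower. The called probes of *Ski*, *Tgfbr3*, *Snai1*, *Ltbp4*, *Ankrd1*, *Col1a1*, *Fbn1* (ILMN_1223552), *Igfbp3* (ILMN_1219335) and *Smurf1* (ILMN_2772256) then lost their calls (limma adjusted p = 0.0501 to 0.0946). With the replicate number as a block the called probes of *Fbn1* (ILMN_1223552), *Tgfbr3*, *Ski*, *Col1a1*, *Col3a1* and *Ankrd1* and the *Smurf1* probe ILMN_2772256 were not called, and of these all but *Tgfbr3* and *Ski* were also not called with background correction and the 75th percentile shift.

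**Figure D4:**
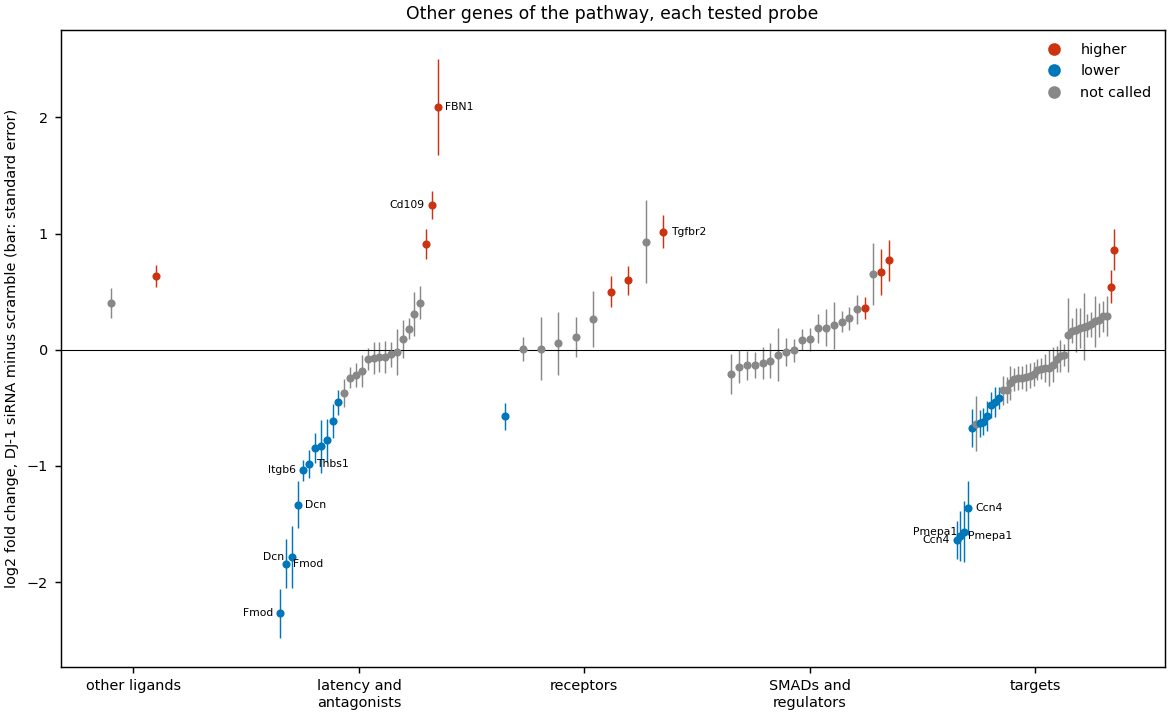
Log2 fold change (vertical axis, DJ-1 siRNA minus scramble, with the standard error) of the 103 tested probes of the pathway lists, sorted within each role and coloured by call. Named points are the called probes with the largest fitted changes in either direction. Fmod, Dcn, Ccn4 and Pmepa1 are the lowest and FBN1 and Cd109 the highest, and the Fmod probe at -1.84 is a fitted value for a probe not detected after knockdown.

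Of 11 probes of other ligands of the family, 2 were tested. *Inhbb* was also sought, and no probe matched this name. *Gdf15*, a distant member of the TGF-beta family induced by cell stress, had log2 signals of 9.55, 9.68 and 9.62 with scramble siRNA, against 10.20, 10.22 and 10.34 with DJ-1 siRNA. The groups were far apart compared with their ranges. Its fold change on the log2 scale was 0.63 (SE 0.10, limma adjusted p = 0.00611), and *Gdf15* was called under all 14 alternatives.

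Genes for latency, activation and extracellular binding of TGF-beta had 28 tested probes with a median log2 fold change of -0.20. Of these, 11 were called lower and 3 higher, or 50% together, where 13.6%, 16.5% and 30.1% of all tested probes were. Several of the 28 probes share a gene, and the difference between these shares was not tested. Decorin and fibromodulin, small proteoglycans that bind TGF-beta in the matrix, fell most. *Dcn* (ILMN_2596346) had log2 signals of 10.85, 10.59 and 10.58 in scramble myotubes, against 9.0, 9.37 and 8.29 in knockdown myotubes. Every knockdown array was below every scramble array on this probe and on the other tested *Dcn* probe, with log2 fold changes of -1.79 (SE 0.27, limma adjusted p = 0.0058) and -1.34 (SE 0.20, limma adjusted p = 0.00598). *Fmod* (ILMN_2999762) had log2 signals of 7.86, 8.26 and 8.0 with scramble siRNA, against 5.71, 6.17 and 5.42 with DJ-1 siRNA, a log2 fold change of -2.27 (SE 0.21, limma adjusted p = 0.00277) that was -1.08 at its smallest over the alternatives.

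The second *Fmod* probe (ILMN_1230020) was detected on all scramble arrays and on no DJ-1 siRNA array. It entered the test through the scramble arrays alone, so its test is not used. In background-corrected signal it was at least 2.55-fold lower, and without background correction its log2 fold change was -0.69 with quantile normalisation and -0.65 with the 75th percentile shift, which is a smaller fold than this bound. This bound compares the detected group's mean with a floor for the other group, which is, averaged over its arrays, the dimmest detected signal or the signal of the probe itself where that is brighter.

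A pair of genes whose products activate latent TGF-beta fell. Thrombospondin 1 (*Thbs1*) had log2 signals of 8.65, 8.66 and 8.45 with scramble siRNA, against 7.49, 7.77 and 7.54 with DJ-1 siRNA. The integrin subunit *Itgb6* (ILMN_2805375) had 9.27, 9.24 and 9.22 with scramble siRNA, against 8.24, 8.25 and 8.13 with DJ-1 siRNA. On these probes each knockdown array lay well below each scramble array, and on the third *Itgb6* probe the gap between the groups was smaller than the range of the scramble arrays. *Thbs1* fell by 0.98 on the log2 scale (limma adjusted p = 0.00363), and the 3 *Itgb6* probes fell by 1.04, 0.84 and 0.62 (adjusted p = 0.00277, 0.00616 and 0.0224). The call of the third *Itgb6* probe (ILMN_2604243) was lost without scramble replicate 2 (-0.60) or DJ-1 siRNA replicate 1 (-0.61) or 3 (-0.58), and with a trend in the prior variance (adjusted p = 0.0507). It was also lost without background correction, where the value was -0.22 with quantile normalisation (adjusted p = 0.0604) and -0.21 with the 75th percentile shift (adjusted p = 0.0856, the highest of a range that began at 0.00313).

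*Cd109*, which encodes a co-receptor that restrains TGF-beta signalling, rose. Its log2 signals (ILMN_1214571) were 7.10, 7.31 and 7.26 in scramble myotubes, against 8.45, 8.31 and 8.63 in knockdown myotubes. The log2 fold changes of its 2 tested probes were 1.25 (SE 0.12, limma adjusted p = 0.00289) and 0.91 (SE 0.13, limma adjusted p = 0.00525). They were called under all 14 alternatives, though without background correction the first was as low as 0.77 and the second 0.57.

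Probes of the microfibril and latent TGF-beta binding protein genes disagreed. The *Fbn1* probe matched to RefSeq (ILMN_1223552) had a log2 fold change of -0.45 (limma adjusted p = 0.022), and a probe listed as FBN1 without such a match (ILMN_1252506) had 2.09 (adjusted p = 0.0125). The first was not called without DJ-1 siRNA replicate 1 (-0.38) or 3 (-0.48). The second was detected on 2 of 3 scramble arrays. When the probes of each gene were averaged, the value for both was 0.82, opposite in sign to the first, and without background correction the second had 0.99 and 0.98. A probe of LTBP3 (ILMN_1243018) had -0.78 (limma adjusted p = 0.0231), while the other two had 0.09 and -0.08 and were not called. A probe of *Ltbp4* (ILMN_2708681), detected on 1 of 3 DJ-1 siRNA arrays, had -0.83 (adjusted p = 0.0335), while the other two had 0.31 and 0.41 and were not called. The LTBP3 call was lost without scramble replicate 2 (-0.68) or DJ-1 siRNA replicate 1, 2 or 3 (-0.81, -0.77 and -0.73), and the *Ltbp4* call without scramble replicate 1 or 3 (-0.65 and -0.91) or DJ-1 siRNA replicate 2 or 3 (-0.71 and -0.76). With all probes tested, the *Ltbp4* call was also lost (limma adjusted p = 0.0724), and the LTBP3 probe lay at the threshold (adjusted p = 0.05). When the probes of each gene were averaged, neither gene was called, with values of -0.26 for *Ltbp3* (adjusted p = 0.0985) and -0.04 for *Ltbp4* (adjusted p = 0.795), each the highest adjusted p over the alternatives of its called probe. Without background correction the called probes had -0.25 and -0.27 with quantile normalisation, and -0.23 and -0.24 without a call with the 75th percentile shift.

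Among receptors and co-receptors, 10 probes were tested, and 3 were called higher and 1 lower, or 40% together, where 16.5%, 13.6% and 30.1% of all tested probes were. The probes of the type II receptor of TGF-beta, *Tgfbr2*, moved in opposite directions. ILMN_1242086 had log2 signals of 6.34, 6.33 and 6.46 with scramble siRNA, against 7.43, 7.13 and 7.62 with DJ-1 siRNA, a log2 fold change of 1.02 (SE 0.14, limma adjusted p = 0.00494). ILMN_2760979 had 12.58, 12.70 and 12.75 with scramble siRNA, against 12.07, 12.28 and 11.97 with DJ-1 siRNA, a log2 fold change of -0.57 (SE 0.12, limma adjusted p = 0.0142). The groups did not overlap on either probe, so the array gives no single direction for this receptor, and 2 further probes were not detected. The second call was lost without DJ-1 siRNA replicate 1 (-0.55) or 3 (-0.50). The first was 0.48 without background correction under either normalisation, and 0.22 without a call when the probes of each gene were averaged.

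*Acvr1*, a type I receptor on this list, had mean log2 signals of 10.58 (SD 0.13) in scramble myotubes and 11.17 (SD 0.16) in knockdown myotubes, without overlap. In log2 units, knockdown minus scramble was 0.60 (SE 0.12, limma adjusted p = 0.0151), and it was not called without DJ-1 siRNA replicate 1 (0.53) or 3 (0.58). *Tgfbr3*, or betaglycan, a co-receptor that presents TGF-beta 2 to *Tgfbr2*, rose by 0.50 (SE 0.13, limma adjusted p = 0.031), and was not called without scramble replicate 2 or 3 (0.44 and 0.54) or DJ-1 siRNA replicate 2 or 3 (0.42 and 0.47). The *Tgfbr3* call was also lost with the replicate number as a block (adjusted p = 0.0635) and with all probes tested (adjusted p = 0.0689). The type II receptors of activin and myostatin, and the type I receptor *Acvr1b*, were not called. *Acvr2b* had a log2 fold change of 0.11 (SE 0.17, limma adjusted p = 0.66) and *Acvr1b* 0.06 (SE 0.27, limma adjusted p = 0.892) on its single tested probe of 3. Neither had a stable sign, with -0.02 without scramble replicate 3 and 0.27 without scramble replicate 1 for *Acvr2b*, and -0.12 without scramble replicate 2 and 0.37 without scramble replicate 1 for *Acvr1b*. *Acvr2a* was detected on 1 scramble array and on all 3 DJ-1 siRNA arrays, with 0.93 (SE 0.36, limma adjusted p = 0.0929), and was called under 3 alternatives, without scramble replicate 2 (1.39, adjusted p = 0.0115), with a trend in the prior variance (adjusted p = 0.0389) and, with no background correction, after the 75th percentile shift (0.34, adjusted p = 0.0405). Its adjusted p was 0.21 at its highest, and its value was 0.31 with quantile normalisation without background correction. The tested probes of *Tgfbr1*, the type I receptor of TGF-beta, had 0.01 and 0.27 (adjusted p = 0.973 and 0.443), 2 more were not detected, and neither was *Acvr1c*. With 1 array left out, the *Tgfbr1* values ranged from -0.03 without scramble replicate 2 to 0.06 without DJ-1 siRNA replicate 3, and from 0.09 without scramble replicate 3 to 0.50 without scramble replicate 1.

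Of the SMADs, *Smad2*, *Smad3*, *Smad6* and *Smad7* had probes, and none of their tested probes was called. *Smad4* and the regulator *Smurf2* were also sought, and no probe matched either name. *Smad2* had a log2 fold change of -0.13 (SE 0.11, limma adjusted p = 0.401), which was -0.07 without scramble replicate 3 or DJ-1 siRNA replicate 1, and the 2 probes of *Smad3* had 0.27 and 0.24 (standard errors 0.10 and 0.09, adjusted p = 0.0784 and 0.0857 from limma). The groups did not overlap on either *Smad3* probe, and both were called under the 3 other combinations of background correction and normalisation and with a trend in the prior variance. The first was also called with the stricter filter. Adjusted p ran from 0.0346 to 0.229 and from 0.016 to 0.204 over the alternatives. The inhibitory *Smad7* was detected on no array. Of 21 tested probes of the SMADs and their regulators, 3 were called, all higher (14.3%, where 30.1% of all tested probes were called), and 1 of these had to differ. *Ski*, a corepressor of SMAD2 and SMAD3, rose by 0.36 (limma adjusted p = 0.0309), a call lost without any 1 of the 6 arrays (0.33 to 0.41). The ubiquitin ligase *Smurf1*, which marks receptors and SMADs for degradation, was at least 1.15-fold higher in background-corrected signal on a probe (ILMN_3109269) that was detected on all DJ-1 siRNA arrays and on no scramble array. That probe passed the filter through the DJ-1 siRNA arrays alone, so its test is not used. A second *Smurf1* probe (ILMN_2772256), detected on 1 scramble array, had 0.67 (adjusted p = 0.0436) and was called without scramble replicate 2 but not without any other array (0.48 to 0.76). Without background correction it was 0.22 under either normalisation and not called.

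Genes known to be raised by TGF-beta in mesenchymal cells had 42 tested probes. Of these, 11 were called lower and 2 higher, or 31.0% together, where 13.6%, 16.5% and 30.1% of all tested probes were. The median log2 fold change of the 42 was -0.19. The probes called lower belonged to 7 genes, and the difference between these shares was not tested. *Pmepa1*, a direct SMAD target whose product dampens the signal, had log2 signals (ILMN_1213989) of 10.78, 11.12 and 11.22 with scramble siRNA, against 9.37, 9.85 and 9.09 with DJ-1 siRNA. All knockdown arrays lay far below all scramble arrays, and the 2 probes had log2 fold changes of -1.60 (SE 0.22, limma adjusted p = 0.00431) and -1.57 (SE 0.26, limma adjusted p = 0.00764). *Ccn4*, listed as WISP1 and of the same family as CTGF, had log2 signals (ILMN_2492264) of 12.63, 12.96 and 12.94 in scramble myotubes, against 11.07, 11.50 and 11.05 in knockdown myotubes. Its 2 probes fell by 1.64 and 1.36 on the log2 scale (adjusted p = 0.00292 and 0.0081 from limma). Both genes were called on both probes under all 14 alternatives, though without background correction the second probes had values of -0.84 for *Pmepa1* (ILMN_2987404) and of -0.65 with quantile normalisation and -0.64 with the 75th percentile shift for *Ccn4* (ILMN_2453775).

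Other targets changed less. Smooth muscle actin *Acta2* fell by 0.63 and 0.62 on 2 of 5 tested probes (adjusted p = 0.01 and 0.0118 from limma), which were called with each array left out. When all 5 were averaged the value was -0.33 and not called (adjusted p = 0.0619, the highest over the alternatives). *Igfbp3*, a binding protein of insulin-like growth factors, fell by 0.67 and 0.57 (adjusted p = 0.0234 and 0.0196), and the collagen genes *Col1a1* and *Col3a1* fell by 0.47 and 0.42 (adjusted p = 0.0238 and 0.019). This was the single tested probe of *Col1a1* and 1 of 2 of *Col3a1*, whose other probe (ILMN_2683958) had -0.64 and was not called (adjusted p = 0.0876). One of 2 probes of the muscle stress gene *Ankrd1* fell by 0.45 (adjusted p = 0.0428). The calls of *Igfbp3*, *Col1a1*, *Col3a1* and *Ankrd1* were each lost without DJ-1 siRNA replicate 1 (-0.67, -0.55, -0.44, -0.40 and -0.47 in the order given) and without DJ-1 siRNA replicate 3 (-0.69, -0.58, -0.47, -0.40 and -0.45). Leaving out scramble replicate 3 ended the calls of *Col1a1* (-0.40), *Col3a1* (-0.39), *Ankrd1* (-0.33) and the first *Igfbp3* probe (-0.60), and leaving out scramble replicate 2 ended those of *Ankrd1* (-0.47) and the first *Igfbp3* probe (-0.57). Without DJ-1 siRNA replicate 2 those of both *Igfbp3* probes (-0.65 and -0.54) and *Ankrd1* (-0.44) were lost.

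The *Igfbp3* values also depended on the background correction. Without it, the first probe (ILMN_1219335) had -0.35 with quantile normalisation and -0.34 with the 75th percentile shift. The second (ILMN_2727503) had -0.18 (adjusted p = 0.0988) and -0.17 (adjusted p = 0.15), neither called. The second was also not called with a trend in the prior variance (adjusted p = 0.077), and its adjusted p ranged from 0.00396 to 0.15.

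In the other direction, 1 of 4 tested probes of fibronectin (*Fn1*, ILMN_2646618) rose by 0.86 (limma adjusted p = 0.0148) and was called with each array left out, and the other 3 had 0.16 to 0.22 without a call. When the 4 were averaged the value was 0.36 and not called (adjusted p = 0.0664, the highest over the alternatives). The transcription factor *Snai1* rose by 0.54 on 1 of 2 tested probes (adjusted p = 0.0326). The *Snai1* call was lost without scramble replicate 1 or 2 (0.51 and 0.50) or DJ-1 siRNA replicate 1 or 3 (0.58 and 0.41). It was also lost when its tested probes were averaged (0.39), and with all probes tested (limma adjusted p = 0.0722).

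The probes most like those of FST and CTGF over the 6 arrays were listed as a description, by Pearson correlation of normalised log2 signal. MSTN had no tested probe to compare. For FST they were EG546150 (r = 0.996), *Nav1* (r = 0.996) and *Tomm40l* (r = 0.996), with log2 fold changes of -0.75, -0.83 and -0.35. For CTGF (ILMN_2909150) they were *Slc25a5* (r = 0.993), *Cd163* (r = 0.989) and *Ndor1* (r = 0.987), with -0.11, -0.74 and -0.66. These are the highest values among 17890 probes over 6 arrays that share their 2 groups, and no p is given.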

How the data were processed

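The deposited table gave, for each probe and array, an intensity, a detection p-value, a number of beads and a bead standard error. The authors quantified the arrays in GenomeStudio and tested in GeneSpring with a moderated test and Benjamini-Hochberg correction. The deposited intensities were neither normalised nor background-subtracted. They were processed with neqc of limma 3.58.1 in R 4.3.3, in which detection p-values stand in for negative control beads, with an offset of 16, quantile normalisation and log2. A probe needed a detection p under 0.05 on 3 of 6 arrays or more. The fit used lmFit and eBayes, and the same code was first run on simulated data. Alternatives changed the background correction, the normalisation, the filter (none, or detection p under 0.01 on all 6 arrays), the prior variance, a replicate block, the arrays used and the handling of several probes of a gene. Gene symbols came from RefSeq GRCm38.p6, which matched 32345 probes. The files name no genome build. Figures were drawn with matplotlib 3.10.9 in Python 3.11.15.

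Named are all member probes, all called probes of the pathway lists, all probes of the main type I and type II receptors and of *Smad2*, *Smad3* and *Smad7*, *Dj1*, and the 3 probes most correlated with FST and CTGF. Cell markers are named as examples from lists of myotube, myoblast, leukocyte, endothelial, epithelial, adipocyte and fibroblast genes. The members and lists were chosen with earlier results of these data known.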

Additional observations from a re-analysis of the deposited data

How the results depend on the processing

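*Dj1* was called lower under all 14 alternatives, with log2 fold changes from -1.24 to -1.0. Of the 10 member probes, 9 kept their sign under all 14, and INHBA did not.

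With all 45281 probes tested, limma called 3519 of them. It called 0 members, 0 higher and 0 lower (6, 1 and 5 at an unadjusted p under 0.05). Of the 172 pathway probes, 26 were then called, 8 higher and 18 lower. Background correction with the 75th percentile shift gave 2 called members, of which 1 was lower. Quantile normalisation without background correction and the trend in the prior variance each gave 5 called lower. The 75th percentile shift without background correction gave 19 pathway probes called higher. Averaging a gene's probes gave 18 called of 57 pathway genes, 7 higher and 11 lower. Kept separately, the probes gave 10 genes with a probe called higher and 15 with a probe called lower. The cause of these shifts was not tested.

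Without 1 array at a time, the number of members called was 0 to 3 (4 at an unadjusted p under 0.05 where limma called 0, without DJ-1 siRNA replicate 1), 0 to 2 higher and 0 to 2 lower. The pathway count was 19 to 34, 6 to 11 higher and 13 to 23 lower, and that of all probes 2444 to 5302. Fewer samples were then fitted.

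When probes of opposite sign were averaged, the value became 0.82 for *Fbn1* (ILMN_1223552) and 0.22 for *Tgfbr2* (ILMN_2760979). It became -0.04 for *Ltbp4* (ILMN_2708681) and -0.26 for LTBP3 (ILMN_1243018), without a call, and *Acta2* (-0.33), *Fn1* (0.36) and *Snai1* (0.39) also lost their calls when averaged with probes that changed less.

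With the replicate number as a block, 4 members, 30 pathway probes and 4350 of all probes were called. FST and FSTL3 were among the 4 members, with both CTGF probes in place of FSTL1 and TGFB2, and *Dj1* had an adjusted p of 0.0151 (1.5e-06 to 0.0184 over the alternatives). Deviations from the group mean of samples with the same number correlated across probes at 0.054, 0.047 and 0.020. For samples with different numbers the values were -0.047 to -0.0037. All were below the 0.1 set for pairing, so the samples were not treated as paired. The array medians of raw signal did follow the number (162, 167 and 154 with scramble siRNA, against 161, 167 and 152 with DJ-1 siRNA). Probes are not independent replicates.

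The signal over background limits what can be said of MSTN, which no array detected, and of dim probes, whose fold changes were smaller without background correction.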
